A study of Mus musculus with 16 samples.

Results

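Tight junctions seal the clefts between neighbouring brain endothelial cells, and 9 genes that build them (Cldn5, Cldn12, Ocln, Tjp1, Marveld2, Lsr, F11r, Jam2 and Cgn) were read from an RNA sequencing count table of 39057 genes. They were chosen by name, as transcripts of the claudins, the occludin family, the tricellular contact, the junctional adhesion molecules and the cytoplasmic plaque, and the choice sets no threshold on a measured value. The table covers 16 primary cultures of cortical brain endothelial cells, which came in equal numbers (8 each) from animals of the *APOE3* and the *APOE4* genotype, 4 of either sex in each, with 1 animal per culture. In both targeted replacement lines (Taconic 1548 for *APOE3* and 1549 for *APOE4*) a human APOE isoform replaces the mouse gene and is driven by the endogenous mouse promoter, so every cell that uses this promoter carries the human isoform, and no culture with mouse apolipoprotein E was part of the comparison. The mice were 21 to 28 days old per the labels, meninges were removed, endothelial cells were enriched with 8 µg/ml puromycin, and the cells were grown to confluence without passage. No culture received a drug or an inflammatory stimulus.

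In a tight junction, strands of claudins and occludin reach across the cleft to the next cell, and the kind of claudin sets which solutes can pass. Where 3 cells meet, tricellulin and angulins close the remaining gap. Immunoglobulin-like adhesion molecules line the same contact, and scaffold proteins such as ZO-1 and cingulin anchor all of them to actin. Brain endothelial cells are known for an unusually dense network of such strands, built mainly on claudin-5, which is a defining feature of the blood-brain barrier.

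The study asked whether the human APOE isoform that brain endothelial cells make changes their own phenotype, and for the tight junction the comparison was *APOE4* against *APOE3*. Total counts per library ran from 12717847 to 18624417, and 12481 genes had enough counts to be tested. Human APOE was at 1003 to 1425 CPM (gene counts scaled to the library total with TMM normalization) in *APOE3* and at 609 to 1013 CPM in *APOE4* libraries, while mouse Apoe was at 10.2 to 18.1 CPM in all 16. The human and mouse genes are alike in sequence, so reads of the one could be counted to the other. All 23 brain endothelial markers were detected and tested, led per kb by Eng, the TGF-beta co-receptor endoglin. Of the epithelial markers, whose cells also build tight junctions, Epcam had 0 to 7 counts and Cdh1 0 to 20 counts per library, and the 10 genes of that list summed to 1.47 to 12.9 CPM, with Krt19 the highest.

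All 9 genes were compared in level as CPM per kb of exon, which removes the effect of transcript length and leaves the mean ± SD over the 16 libraries. Cldn5, the main sealing claudin of the blood-brain barrier, was far above the others at 926 ± 46.1, higher than 99.8% of tested genes. Tjp1, which encodes the scaffold ZO-1, followed at 156 ± 6.27, and F11r, which encodes the adhesion molecule JAM-A, at 114 ± 3.93. These 3 genes were each higher than at least 97.4% of tested genes. Lsr, which encodes angulin-1, was at 54.2 ± 4.50, and Ocln, which encodes occludin, at 37.0 ± 1.58. Jam2, which encodes JAM-B, was at 15.2 ± 2.31 in *APOE3* and 12.8 ± 2.26 in *APOE4* libraries (n = 8 each), Marveld2, which encodes tricellulin, at 8.17 ± 0.746, and Cldn12 at 4.94 ± 0.529. Cgn, which encodes cingulin, ended the order at 0.00992 ± 0.0155. Each gene was above the next in all 16 libraries, also when the longest transcript was used as the length, so no neighbours in this order overlapped within a library. The step from Cldn5 to Tjp1 was 5.92-fold, and the smallest step was 1.37-fold, between Tjp1 and F11r.

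**Figure D1:**
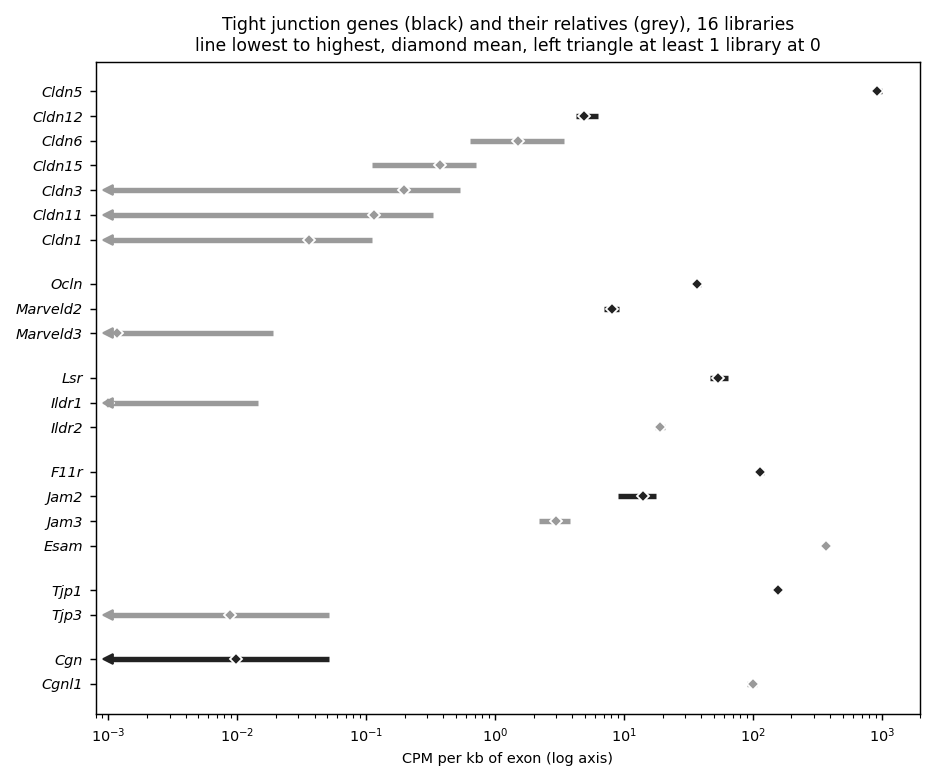
Level of the 9 tight junction genes (black) and of their relatives (grey) as CPM per kb of exon on a log axis, 16 libraries, with a line from the lowest to the highest library, a diamond at the mean and a left-pointing triangle where at least 1 library was at 0. Most families hold genes in a narrow high range beside relatives at or near 0, and Cgn is the member found at the low end.

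Within the claudin, angulin and cingulin families a few genes made up nearly all of the transcript. Among 27 claudin genes of the table, Cldn5 was 99.2 ± 0.104% of the summed CPM per kb in *APOE3* and 99.1 ± 0.141% in *APOE4* libraries (SD, n = 8 each), and Cldn12 was 0.508 ± 0.0452% and 0.554 ± 0.0910%. Cldn3, Cldn1 and Cldn11, claudins of epithelia and myelin, had at most 11, 8 and 10 counts in any library. For Cldn3 in particular, a claudin often named beside Cldn5 at the barrier, the level was 0.197 ± 0.165 CPM per kb. Tjp3 (ZO-3), a relative of Tjp1, had 0 to 3 counts. Of the angulins, Lsr stood at 74.7 ± 1.33% and 72.9 ± 1.11%, with Ildr2 (angulin-3) as the remainder and Ildr1 (angulin-2) at 0 to 1 count. In the cingulin pair the levels ran the other way, since Cgn had 0 to 5 counts while its paralog Cgnl1 (paracingulin) was at 100.2 ± 5.35 CPM per kb. The relatives Cldn1, Cldn3, Cldn11, Tjp3, Ildr1, Ildr2, Cgnl1 and Jam3 were named after their values had been seen.

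The promoters of 3 members are shown because they mark the ends of these results, the gene with the highest level (Cldn5), the gene that passed the test between genotypes (Marveld2) and the gene that was barely counted (Cgn). RefSeq promoter sequences on GRCm38.p6, 250 bases before to 50 after the start site, matched 8 of the 9 members. Cldn5 lies at chr16:18776597-18776896 on the plus strand, Marveld2 at chr13:100616922-100617221 on the minus strand (the first of its listed start sites) and Cgn at chr3:94786433-94786732 on the minus strand, all printed 5′ to 3′ along the gene. Capitals mark matches, on either strand, to 7 motifs. These were the ETS core CCGGAA, held by 15.2% of all 27025 promoters, the forkhead motif TGTTTAC (3.55%), the SOX motif ACAATG (12.8%), the TCF/LEF motif CTTTGAT (3.72%), the Snail E-box CAGGTG (20.0%), the SP/KLF box GGGCGG (35.9%) and the TATA box TATAAA (14.2%).

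Cldn5: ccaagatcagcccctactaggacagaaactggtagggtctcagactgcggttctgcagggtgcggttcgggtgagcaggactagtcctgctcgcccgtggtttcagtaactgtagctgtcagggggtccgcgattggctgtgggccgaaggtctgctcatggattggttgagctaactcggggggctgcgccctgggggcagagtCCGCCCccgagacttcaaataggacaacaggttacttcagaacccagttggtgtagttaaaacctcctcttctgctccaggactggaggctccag
Marveld2: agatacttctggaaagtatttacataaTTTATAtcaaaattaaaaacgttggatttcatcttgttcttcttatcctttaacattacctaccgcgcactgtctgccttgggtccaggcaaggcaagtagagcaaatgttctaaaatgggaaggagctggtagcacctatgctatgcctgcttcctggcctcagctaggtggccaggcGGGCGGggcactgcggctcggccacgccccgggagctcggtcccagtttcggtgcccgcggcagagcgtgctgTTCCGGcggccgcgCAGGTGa
Cgn: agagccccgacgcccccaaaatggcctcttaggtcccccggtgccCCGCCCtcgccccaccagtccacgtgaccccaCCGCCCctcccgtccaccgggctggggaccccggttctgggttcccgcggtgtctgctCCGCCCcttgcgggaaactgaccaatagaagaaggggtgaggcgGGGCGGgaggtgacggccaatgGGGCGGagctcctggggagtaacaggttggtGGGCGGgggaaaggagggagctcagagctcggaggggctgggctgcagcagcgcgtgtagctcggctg

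No matches overlapped in these 3 sequences. The Cldn5 promoter held 1 match, to the SP/KLF box, and was 58.3% G or C, against a median of 52.7% over all promoters. The Marveld2 promoter held 4 matches, 1 each to the TATA box, the SP/KLF box, the ETS core and the Snail E-box, at 54.0% G or C. The Cgn promoter held 6 matches, all to the SP/KLF box, at 70.3% G or C. A match describes the letters of the window only.

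Between genotypes, 1 of the 8 tested members passed the test and it was lower in *APOE4* (Marveld2), while none was higher. With edgeR's quasi-likelihood F test and p-values adjusted by Benjamini and Hochberg's method for 12481 genes, 12.8% of all tested genes had an adjusted p under 0.05, 6.71% higher and 6.09% lower. A count of 1 of 8 therefore lay close to the background. Of the 8 members 6 had a log2 fold change below 0 and 2 above, with a median of -0.06, against -0.0002 over all tested genes, and the median size was 0.06 against 0.09. In 0 of the 8 were the 8 *APOE4* libraries separated from the 8 *APOE3* libraries, which was the case for 0.625% of tested genes. Before adjustment, p was under 0.05 for 2 members (Marveld2 and Jam2) and for 29.0% of all tested genes. In bulk RNA a change in the level per cell and a change in the share of cells that hold the transcript cannot be told apart.

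**Figure D2:**
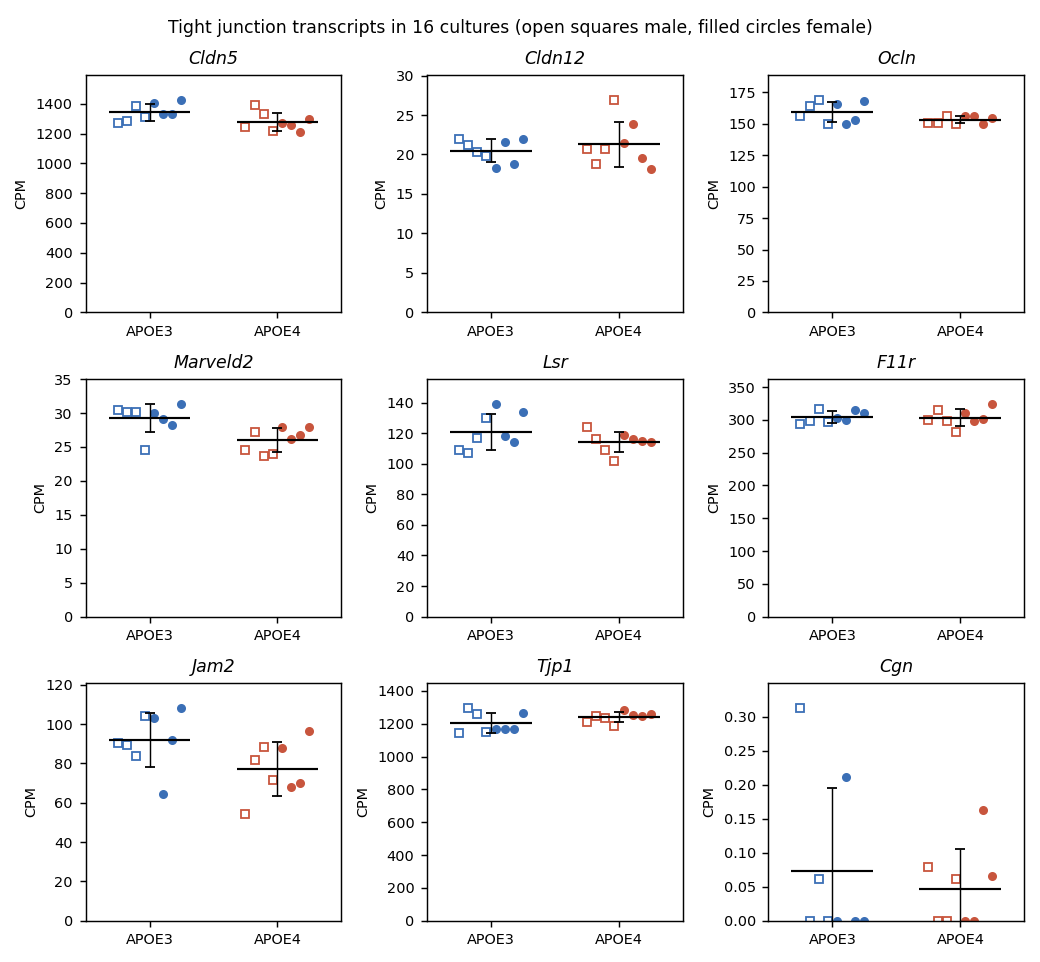
CPM of each tight junction gene in 16 cultures by genotype, with open squares for males, filled circles for females, a horizontal bar at the mean and error bars of 1 SD, 8 cultures per genotype. The genotypes overlap in every panel, and in the Marveld2 panel 7 *APOE3* cultures lie above all 8 *APOE4* cultures.

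Cldn5 (ENSMUSG00000041378.1, chr16:18776847-18778262 on GRCm38, plus strand, 1 exon) forms the charge- and size-selective seal of brain capillaries. Its CPM had a lowest, median and highest value of 1271, 1330.1 and 1425 in *APOE3* and of 1213, 1266 and 1392 in *APOE4* libraries. The groups overlapped, with 4 *APOE4* libraries below every *APOE3* library and 2 *APOE3* libraries above every *APOE4* library. The means were 1342 ± 56.4 and 1279 ± 60.6 CPM (SD, n = 8 each). In edgeR the difference was -4.72% with a 95% confidence interval from -9.35% to 0.154% (log2 fold change -0.07, SE 0.0345, adjusted p = 0.187), so it did not pass, and a larger fall than that lower bound lies outside the interval. Among cultures of a genotype Cldn5 had a smaller SD on the log2 scale than all but 8.89% of tested genes and all but 27.9% of genes within 2-fold of its level.

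Cldn12 (ENSMUSG00000046798.14, chr5:5489537-5514958, minus strand) encodes a claudin without the PDZ-binding tail that ties most claudins to ZO proteins. It ran over 18.3, 20.7 and 22.0 CPM (lowest, median, highest) in *APOE3* and 18.1, 20.7 and 26.9 CPM in *APOE4* libraries. The medians coincided, and the *APOE4* group spread wider, from its lowest library (replicate 43) to its highest (replicate 38). The edgeR difference was 3.93% with an interval from -6.52% to 15.6% (log2 fold change 0.06, SE 0.0734, adjusted p = 0.660).

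Occludin, the 4-pass membrane protein of the strands, did not pass the test. Ocln (ENSMUSG00000021638.12, chr13:100496507-100552718, minus strand) had 149.8, 159.8 and 169 CPM in *APOE3* and 149.9, 153 and 156 CPM in *APOE4* libraries. Every *APOE4* library lay below the median of *APOE3*, yet 1 *APOE3* library, replicate 28, was below every *APOE4* library. The means were 159 ± 8.09 and 153 ± 2.81 CPM, and the edgeR difference was -3.90% with an interval from -8.18% to 0.579% (log2 fold change -0.06, SE 0.0315, adjusted p = 0.239).

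Marveld2 (ENSMUSG00000021636.14, chr13:100595957-100616971, minus strand) encodes tricellulin, which closes the point where 3 cells meet. Its levels were 24.6, 30.1 and 31.3 CPM in *APOE3* and 23.7, 26.4 and 27.9 CPM in *APOE4* libraries. The *APOE4* libraries, all 8 of them, had less than the *APOE3* median, and 7 of the 8 *APOE3* libraries were above every *APOE4* library. The exception was *APOE3* replicate 28 at 24.6 CPM. The means were 29.3 ± 2.10 and 26.0 ± 1.75 CPM, and in edgeR Marveld2 fell by 11.2% (log2 fold change -0.17, SE 0.0536, 95% confidence interval -0.28 to -0.06, adjusted p = 0.0409). The call was near the threshold. Leaving out 1 library at a time kept a log2 fold change of -0.20 to -0.15 but an adjusted p under 0.05 in 6 of 16 edgeR fits, and leaving out *APOE3* replicate 25, 26, 27, 30 or 33 or *APOE4* replicate 35, 37, 38, 40 or 41 gave adjusted p from 0.0611 to 0.0861. Without the filter on low counts its edgeR adjusted p was 0.0647. Ocln and Marveld2, both of the MARVEL family, lie close together on chromosome 13. Both lay below the *APOE3* median in every *APOE4* library, but Ocln did not pass (edgeR adjusted p = 0.239), and a shared cause was not tested. Marveld3, the other member of the MARVEL family, had 0 to 1 count and was named after its values had been seen.

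Lsr (ENSMUSG00000001247.16, chr7:30957770-30973464, minus strand) encodes angulin-1, which recruits tricellulin to the tricellular contact. It had 107, 118 and 139 CPM in *APOE3* and 102, 115 and 124 CPM in *APOE4* libraries, with wide overlap. The edgeR difference was -5.50% with an interval from -12.3% to 1.88% (log2 fold change -0.08, SE 0.0520, adjusted p = 0.318). The annotation places the antisense gene Gm4673 across 946 exon bases of Lsr. That gene has no row of counts here, so how its reads were counted was not tested. Lsr lies on the same chromosome as the replaced Apoe gene, 11.3 Mb away.

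F11r (ENSMUSG00000038235.4, chr1:171437535-171464603, plus strand) encodes JAM-A, an adhesion molecule that binds polarity proteins and ZO-1. It had 294, 302 and 317 CPM in *APOE3* and 282, 301 and 324 CPM in *APOE4* libraries, and 4 of the 8 *APOE4* libraries lay on each side of the *APOE3* median. The edgeR difference was -0.138% with an interval from -4.51% to 4.44% (log2 fold change -0.0020, SE 0.0310, adjusted p = 0.975). A change of more than 4.51% in either direction was outside that interval, and the standard error was the smallest of the 8 tested members. F11r had a smaller spread within genotypes than all but 3.20% of tested genes and all but 16.1% of genes within 2-fold of its level.

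Jam2 (ENSMUSG00000053062.15, chr16:84774123-84825928, plus strand) encodes JAM-B, which pairs with JAM-C on the neighbouring cell. It had 64.6, 91.3 and 108 CPM in *APOE3* and 54.4, 76.7 and 96.4 CPM in *APOE4* libraries. Of the *APOE4* libraries 7 lay below the *APOE3* median, and *APOE3* replicate 31 at 64.6 CPM was the lowest of its group. The means were 92.0 ± 13.9 and 77.3 ± 13.7 CPM. The edgeR difference, the largest in size among the tested members, was -15.9% with an interval from -27.6% to -2.24% (log2 fold change -0.25, SE 0.104), and it did not pass (edgeR adjusted p = 0.117). Without *APOE3* replicate 31 it passed (log2 fold change -0.31, edgeR adjusted p = 0.0271), the only such fit of 16. Jam2 was the most variable member, with a larger spread within genotypes than 77.8% of tested genes and 97.4% of genes within 2-fold of its level. Its partner Jam3 (JAM-C) had a log2 fold change of -0.25 as well (SE 0.0993, edgeR adjusted p = 0.0976), which also did not pass.

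Tjp1 (ENSMUSG00000030516.14, chr7:65296165-65527781, minus strand) encodes ZO-1, the scaffold that links claudins, occludin and JAM-A to actin. It had 1146, 1169.6 and 1293 CPM in *APOE3* and 1185, 1246 and 1281 CPM in *APOE4* libraries. All 8 *APOE4* libraries were above the *APOE3* median, and 5 *APOE3* libraries were below every *APOE4* library, but *APOE3* also held the highest library of all (replicate 26). The edgeR difference was 3.02% with an interval from -1.61% to 7.87% (log2 fold change 0.04, SE 0.0318, adjusted p = 0.395). Tjp1 lies on chromosome 7 too, 45.6 Mb from Apoe.

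Cgn (ENSMUSG00000068876.14, chr3:94760069-94786492, minus strand) encodes cingulin, which binds ZO-1 and restrains RhoA activation at epithelial junctions. It was at 0 counts in 9 of the 16 libraries and at or under 3 counts in 15, so it was left out of the fit. Its counts summed to 9 in *APOE3* and 6 in *APOE4* libraries, and a two-sided exact permutation test of log2 CPM between genotypes gave p = 0.791. With most libraries at 0 counts, that test could hardly have found a difference. In the smallest library the limit of 3 counts is 0.236 CPM, counting error alone considered, and the highest library, *APOE3* replicate 25, was at 0.312 CPM (5 counts). Cgnl1 was at 781 ± 43.7 CPM in *APOE3* and 791 ± 42.6 CPM in *APOE4* libraries, with an edgeR log2 fold change of 0.02 (SE 0.0399, adjusted p = 0.814).

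**Figure D3:**
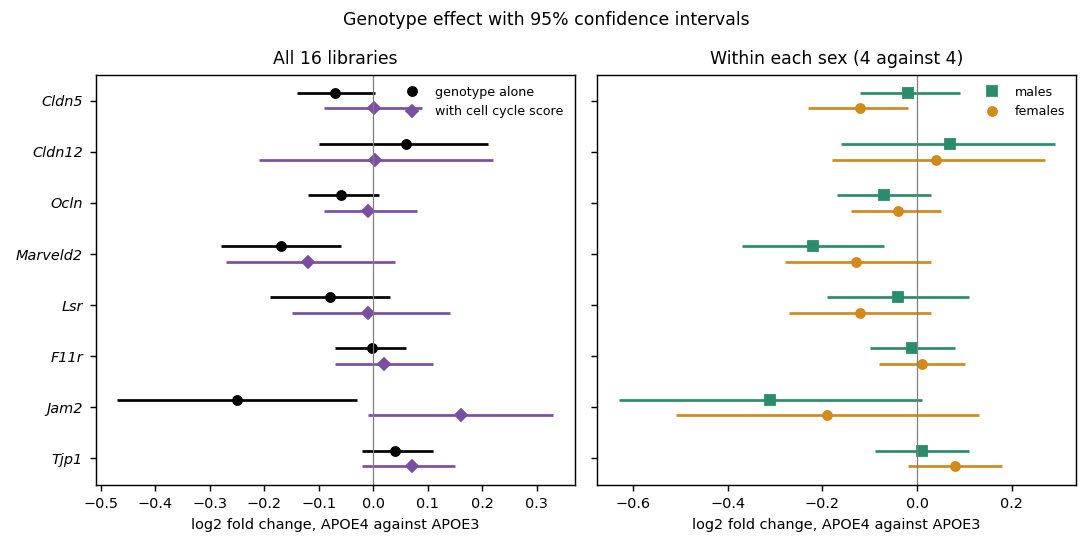
Log2 fold change of *APOE4* against *APOE3* for the 8 tested members with 95% confidence intervals from edgeR, on the left over all 16 libraries with genotype alone (circles) and with the cell cycle score added (diamonds), on the right within males (squares) and within females (circles), 4 against 4. With genotype alone the intervals of Marveld2 and Jam2 stay below 0, and with the score added the Jam2 value moves from -0.25 to 0.16.

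The sex of each animal is given in the labels, and the genotype effect was also taken within each sex, in an edgeR fit that treats genotype and sex as 4 groups (4 libraries each). No member passed in males, in females or in the difference between the sexes, and neither did any other gene by edgeR (0 of 12481 in each). Before adjustment, p was under 0.05 for 1775 genes (14.2%) in males, 2428 (19.5%) in females and 345 (2.76%) for the difference. Of the 8 members this held for 1 in males, 1 in females and 0 for the difference. Marveld2 had a log2 fold change of -0.22 in males (SE 0.0734, unadjusted p = 0.00763, edgeR adjusted p = 0.221) and of -0.13 in females (SE 0.0726, edgeR adjusted p = 0.345). Cldn5 was at -0.02 in males (SE 0.0501) and at -0.12 in females (SE 0.0501, unadjusted p = 0.0253, edgeR adjusted p = 0.190). For both genes the test of the difference between the sexes did not pass (edgeR adjusted p = 1.000), with a 95% interval of the difference on the log2 scale from -0.12 to 0.31 for Marveld2 and from -0.25 to 0.04 for Cldn5. Between females and males across genotypes, 0 of 8 members passed by edgeR, beside 0.0721% of all tested genes (9 genes). An unadjusted p under 0.05 was found for 0 of the 8 members, beside 4.26% of all tested genes, so both counts lay close to the background.

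Proliferation genes moved with genotype in the same libraries. By staining, the paper found that neither bromodeoxyuridine-positive nuclei nor cell density at confluence differed between genotypes, which are measures other than transcript levels. Of 24 cell cycle genes, 23 rose in *APOE4* by edgeR, beside 6.71% of all tested genes, with a median log2 fold change of 0.68. These genes were listed with earlier results of these data known, so their count is a description and not an independent test. Their mean log2 CPM, here called the cell cycle score, was 5.05 to 6.20 in *APOE3* and 5.90 to 6.73 in *APOE4* libraries. The 8 tested members were set against this score after their values had been seen, with genotype means removed and 100000 permutations within genotype. Jam2 decreased as the score increased (Pearson r = -0.85, permutation p = 3.00e-05, adjusted 0.000240 over the 8 relations, and Spearman rho = -0.84, permutation p = 0.000180, adjusted 0.00144, n = 16). The relation was r = -0.79 without the 2 libraries farthest from the median score, -0.89 within *APOE3* and -0.84 within *APOE4*. A lower r was found for 0.881% of all tested genes. Cldn5 had r = -0.57 (permutation p = 0.0246, adjusted 0.0986) and rho = -0.65 (permutation p = 0.0109, adjusted 0.0437), and r = -0.56 without the 2 farthest libraries. The other 6 members had r from -0.49 for Ocln to 0.20 for Cldn12, and none of their permutation p-values passed after adjustment.

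**Figure D4:**
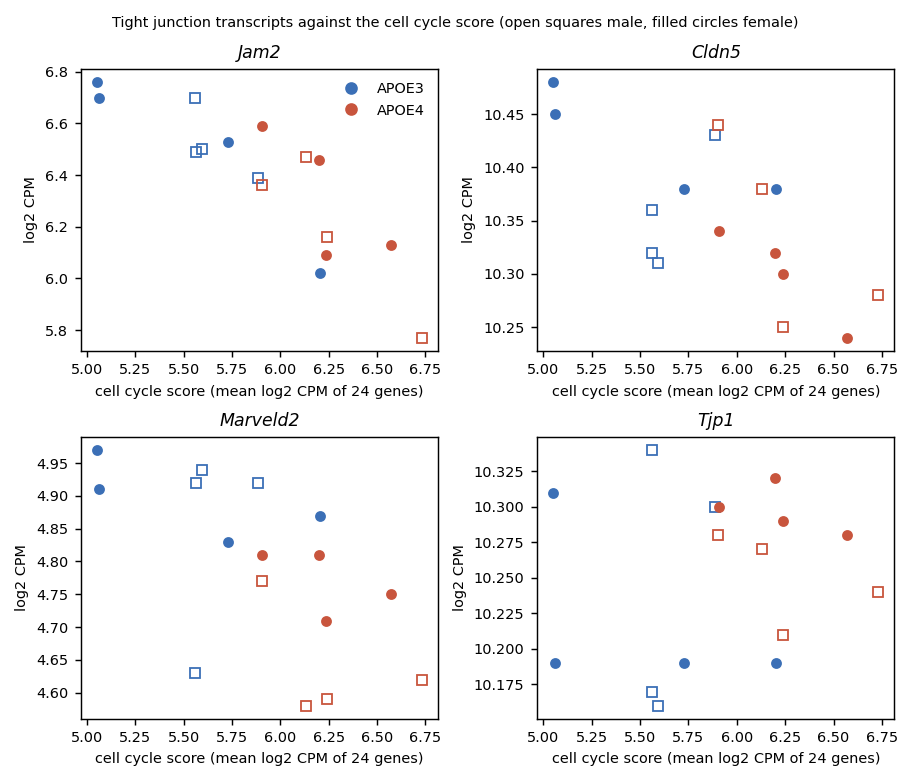
Log2 CPM of Jam2, Cldn5, Marveld2 and Tjp1 (vertical axes) against the cell cycle score, the mean log2 CPM of 24 cell cycle genes (horizontal axes), 1 point per culture, blue for *APOE3*, red for *APOE4*, open squares for males and filled circles for females. Jam2 declines along the score within both genotypes. Across the genotypes it is at 6.76 at the lowest score (*APOE3* replicate 33) and at 5.77 at the highest (*APOE4* replicate 35), a span that also holds the genotype difference.

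With this score added to the edgeR fit as a covariate, 0 of the 8 members and 0 of all tested genes passed, while 893 genes (7.15%) had an unadjusted p under 0.05. The score itself differs between genotypes, so the covariate also takes up part of the genotype term. The log2 fold change of Jam2 went from -0.25 to 0.16 (SE 0.0822, adjusted p = 0.738), that of Cldn5 from -0.07 to 0.0002, and that of Marveld2 from -0.17 to -0.12 (SE 0.0751, adjusted p = 0.767). The part of proliferation in any of these differences was not tested.

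Of the 28 pairs of tested members 21 had a positive Pearson r over the 16 libraries with genotype means removed, and 0 passed a permutation test after adjustment over the 28 pairs (lowest adjusted p = 0.120 for r and 0.0815 for rho), also with genotype-by-sex means removed. Before adjustment the permutation p for r was under 0.05 in 7 of the 28 pairs, 6 of them positive and all 6 among Cldn5, Ocln, Tjp1, Marveld2 and F11r. The strongest were Cldn12 with F11r (r = -0.72, rho = -0.64, permutation p = 0.00585 for r and 0.0116 for rho, but r = -0.40 without the 2 farthest libraries) and Ocln with Tjp1 (r = 0.71, rho = 0.76, permutation p = 0.0227 and 0.00586, and r = 0.63 without the 2 farthest). These points share the library and its depth.

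The genes whose profiles over the 16 libraries were most like each member, by Pearson r of log2 CPM with genotype means removed, are given as a description. Jam2 was most like Itpkb (r = 0.96), an inositol phosphate kinase, and 4930578C19Rik (r = 0.95). F11r was most like Gramd1b (r = 0.91), a lipid transfer protein, and 4833403J16Rik (r = 0.88). Cldn5 was nearest to Myg1 (r = 0.88) and Shisa5 (r = 0.85), and Cldn12 to Cavin2 (r = 0.88), a caveolar coat protein, and Eda2r (r = 0.78). Tjp1 was nearest to Sh3bp5 (r = 0.85) and the transcription factor Klf6 (r = 0.84), and Ocln to Gstm2-ps1 (r = 0.80) and Zfp688 (r = 0.80). Marveld2 followed Thg1l (r = 0.89) and Tada1 (r = 0.84), and Lsr followed Camk2n2 (r = 0.86) and Brd9 (r = 0.81). No member was among the nearest genes of another.

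The wider junction was read from 5 lists written by hand. Of 26 other claudins, 15 were at or under 3 counts in every library, and of the 4 tested (Cldnd1, Cldn6, Cldn15 and Cldn34c1) 0 passed by edgeR and 0 had an unadjusted p under 0.05. Their median log2 fold change was -0.14, and Cldn6, at 17 to 74 counts per library, had the largest size at 0.43 (SE 0.225, edgeR adjusted p = 0.211). Cldnd1, a claudin-domain protein, had the highest level of that list at 14.2 ± 1.00 CPM per kb. Of 6 tested genes among the other membrane proteins 0 passed by edgeR either, and 3 had an unadjusted p under 0.05. Over all tested genes the shares were 12.8% and 29.0%. Esam, an endothelial adhesion molecule related to the JAMs, was the most abundant at 368 ± 12.6 CPM per kb, above every member but Cldn5, with a log2 fold change of -0.06 (SE 0.0275, edgeR adjusted p = 0.147). F2r, the thrombin receptor, was at 60.3 ± 8.99 CPM per kb, with 0.14 (SE 0.0881, edgeR adjusted p = 0.316).

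Of 25 tested scaffold and polarity genes 1 rose and 0 fell, beside 6.71% and 6.09% of all tested genes, with a median of 0.01. It was Heg1, a membrane partner of the KRIT1 complex at endothelial junctions, which rose from 2584 ± 184 CPM in *APOE3* to 2838 ± 141 CPM in *APOE4* (0.14 on the log2 scale, SE 0.0424, edgeR adjusted p = 0.0409). The call held without *APOE3* replicate 26, 27, 31 or 32 or *APOE4* replicate 43, and in the other 11 fits that left out 1 library the edgeR adjusted p was up to 0.0879. It was also 0.0781 without the filter on low counts and 0.0552 with sex as a covariate. Amotl2, an angiomotin, had the next level at 111 ± 8.26 CPM per kb, with -0.04 (SE 0.0507, edgeR adjusted p = 0.658).

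Of 14 adherens junction genes 1 rose and 1 fell, beside 6.71% and 6.09% of all tested genes, with a median of 0.03. Pkp4, a catenin-like partner of cadherins, fell from 244 ± 12.2 CPM in *APOE3* to 220.1 ± 10.9 CPM in *APOE4* (-0.15 on the log2 scale, SE 0.0372, edgeR adjusted p = 0.0150), a call kept in all 16 fits that left out 1 library. Plekha7, which tethers microtubules to the adherens junction, rose from 3.57 ± 1.21 CPM in *APOE3* to 5.59 ± 1.65 CPM in *APOE4* (0.64 on the log2 scale, SE 0.201, edgeR adjusted p = 0.0410). That call held without *APOE3* replicate 28 or 31 or *APOE4* replicate 37, 38 or 43, and the edgeR adjusted p was up to 0.0893 in the other 11 fits. Cdh5 (VE-cadherin) was at 817 ± 34.9 CPM per kb, the nearest in level to Cldn5, with 0.08 (SE 0.0287, edgeR adjusted p = 0.0689), and Pecam1 was at 584 ± 19.5 CPM per kb, with 0.01 (SE 0.0290, edgeR adjusted p = 0.883).

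Of 26 genes of the junctional actomyosin and Rap1, the contractile belt that pulls on the junction and the small GTPase that relaxes it, 4 rose and 1 fell, beside 6.71% and 6.09% of all tested genes, with a median of 0.05. Rock2, a kinase that activates myosin, rose from 268 ± 18.4 CPM in *APOE3* to 308 ± 12.7 CPM in *APOE4* (0.20 on the log2 scale, SE 0.0410, edgeR adjusted p = 0.00727). The lowest *APOE4* library at 289 CPM was above the highest *APOE3* library at 285 CPM. Myl12b, a regulatory light chain of myosin, rose from 356 ± 25.8 CPM in *APOE3* to 409 ± 20.1 CPM in *APOE4* (0.20 on the log2 scale, SE 0.0433, edgeR adjusted p = 0.00839). Both calls held in all 16 fits that left out 1 library. Myh10, the heavy chain of non-muscle myosin IIB, rose by 0.16 on the log2 scale (SE 0.0508, edgeR adjusted p = 0.0418) and Mylk, myosin light chain kinase, by 0.11 (SE 0.0372, edgeR adjusted p = 0.0493). Myh10 kept its call without *APOE3* replicate 27, 31 or 32 or *APOE4* replicate 36 or 43, and Mylk without *APOE3* replicate 32 or *APOE4* replicate 38, and in the other fits the edgeR adjusted p reached 0.0887 and 0.0934. Without the filter on low counts the edgeR adjusted p was 0.0571 for Myh10 and 0.0927 for Mylk, and for Mylk it was 0.0506 with DESeq2 size factors. With limma voom Mylk lay just past the threshold and also lost its call. Afap1l1, an actin-filament-binding adaptor, fell by 0.13 on the log2 scale (SE 0.0371, edgeR adjusted p = 0.0267), and lost its call without *APOE3* replicate 28, 30 or 33 or *APOE4* replicate 35, 40 or 41 (edgeR adjusted p up to 0.0621). The 2 most abundant genes of the list, Myh9 at 495 ± 30.9 and Rhob at 457 ± 27.9 CPM per kb, had log2 fold changes of 0.10 (edgeR adjusted p = 0.0891) and 0.05 (edgeR adjusted p = 0.483). With the cell cycle score added to the fit the log2 fold change was 0.05 for Plekha7, 0.09 for Rock2, 0.09 for Myl12b, -0.08 for Pkp4, 0.03 for Heg1, -0.04 for Afap1l1, -0.03 for Myh10 and 0.14 for Mylk, none of which passed, and the part of proliferation in these changes was not tested.

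**Figure D5:**
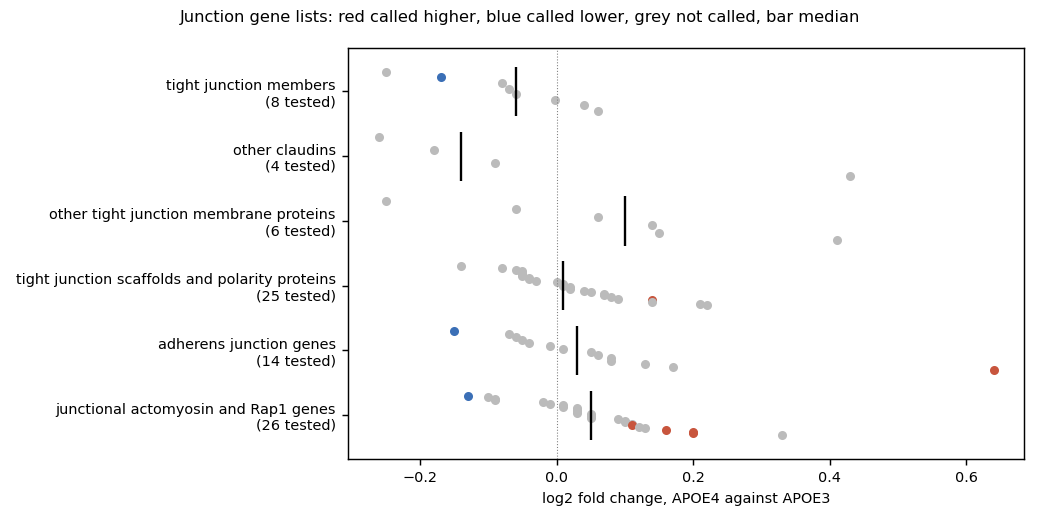
Log2 fold change of *APOE4* against *APOE3* (horizontal axis) for the tested genes of the tight junction members and 5 wider junction lists (rows), 1 point per gene, red for genes that rose, blue for genes that fell, grey for genes that did not pass, with a bar at the list median. The medians run from -0.14 for other claudins to 0.10 for other membrane proteins, and most genes in each list did not pass.

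Of the 23 brain endothelial markers 1 rose and 4 fell, beside 6.71% and 6.09% of all tested genes, with a median log2 fold change of -0.04, and the list summed to 25514 to 27332 CPM in *APOE3* and 25259 to 27856 CPM in *APOE4* libraries. The gene that rose was Emcn (0.14, edgeR adjusted p = 0.0106), and those that fell were the transporters Slc7a5 (-0.48, edgeR adjusted p = 0.0167), Slco1c1 (-0.31, edgeR adjusted p = 0.0472) and Slc16a1 (-0.17, edgeR adjusted p = 0.0243) and the secreted vessel protein Egfl7 (-0.16, edgeR adjusted p = 0.00835), all named after their values had been seen. Mfsd2a, a lipid transporter typical of the blood-brain barrier in the living brain, was low at 3.46 ± 0.486 and 3.36 ± 0.924 CPM. Markers of other cells that could survive in such cultures were low beside these sums. Pericyte and smooth muscle markers summed to 193 to 361 CPM in *APOE3* and 227 to 344 CPM in *APOE4* libraries, led by Tagln and Acta2 (901 to 1798 counts). Of the pericyte genes, Cspg4 had 50 to 242 counts, Pdgfrb 23 to 128 and Anpep 42 to 104, while Higd1b, Kcnj8 and Rgs5 had at most 1, 4 and 14. Arachnoid and fibroblast markers summed to 41.8 to 86.4 and 48.5 to 116 CPM, led by Dpp4, microglia and macrophage markers to 41.9 to 52.7 and 46.2 to 52.2 CPM, and oligodendrocyte markers to 24.5 to 32.2 and 31.6 to 38.0 CPM, led by Cnp. Neuron markers, led by Tubb3, reached at most 18.3 CPM and astrocyte markers, led by Aldh1l1, at most 4.29 CPM. Choroid plexus markers summed to 105 to 118 and 109.5 to 159.9 CPM, nearly all of it Clic6, since Ttr had at most 17 counts. Among these lists Cnp (log2 fold change 0.23, edgeR adjusted p = 0.0143) and Clic6 (0.23, edgeR adjusted p = 0.0207) were higher in *APOE4*, and the part of other cells in the values of the tight junction genes was not tested.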

How the data were processed

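RNA from 16 cultures was poly-A selected, made into strand-selected libraries from 100 ng with 17 PCR cycles and sequenced as paired reads. The deposited counts are whole reads per gene, not normalized, in a table of versioned mouse Ensembl identifiers with human APOE added. The submitters' processing notes name STAR and featureCounts with the builds mm10 and hg38. The annotation release and the strand setting of the counting are not given in the sources used here. Where reads were not counted by strand, overlapping antisense genes cannot be separated. Reads carry no molecular identifiers, and the floor covers counting error only. The edgeR intervals also take in the spread between cultures.

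Symbols, exon lengths and positions came from GENCODE M21 on GRCm38, which held 38872 of the 39056 mouse identifiers, and promoters from RefSeq on GRCm38.p6. Counts were analysed with edgeR 4.0.16 in R 4.3.3 (filterByExpr by genotype, TMM, quasi-likelihood F test, Benjamini-Hochberg adjustment over 12481 genes, threshold 0.05). Standard errors were derived from the log2 fold change and F (size over root F). A prior count of 2 entered log2 CPM, and the floor was 3 counts. Cgn, left out by the filter, was compared by an exact permutation test over all 12870 assignments of libraries to genotypes. Effects by sex came from 1 edgeR fit of 4 groups. Python 3.11.15 was used for the tables and matplotlib 3.10.9 for the plots. The fit was tested on simulated counts.

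Alternatives were DESeq2's size factors, no filter, a minimum of 10 counts in all libraries, a covariate (sex or the cell cycle score), DESeq2 1.42.0, limma 3.58.1 (voom), and each library left out in turn, the last also for the 4-group fit, chosen after seeing the data. Each culture came from a different animal. Pairwise Spearman correlations between libraries were 0.979 to 0.996, and 0 pairs were identical. The members and gene lists were chosen with earlier results of these data known. The text names all members, up to 6 genes per junction list that passed with the largest changes, the 2 of highest level per kb, the 2 genes most like each member and the highest marker of each other cell type, and says where a gene was named after its values had been seen. Values of some genes of these lists are not reported here.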

Additional observations from a re-analysis of the deposited data

Results flagged for a closer look

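The Marveld2 value of *APOE3* replicate 28, a male culture, was 24.6 CPM and stood apart from the other 7 *APOE3* libraries. Its gap to the nearest library was 0.543 of the range of the group, above the critical value of 0.526 for 8 samples. It was the only such library in 16 groups examined (8 members in 2 genotypes), and chance flags about 1 in 20 groups.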

How the results depend on the processing

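No paired analysis was possible because the culture numbers in the labels are not shared between the genotypes. The count of genes that passed between genotypes was 1597, was 1290 to 1965 with the other normalization, filters, tests and with sex as a covariate, and was 0 when the cell cycle score was the covariate. Leaving out 1 library gave 846 to 2127 genes, the lowest 3 being 853 without *APOE3* replicate 30, 952 without *APOE3* replicate 33 and 846 without *APOE4* replicate 41. The count of members that passed was 1 in 5 of the 7 other settings and 0 without the filter and with the cell cycle score, and leaving out 1 library gave 0 to 2. Directions turned for Cldn5 (0.0002), F11r (0.02), Jam2 (0.16) and Myh10 (-0.03) with the cell cycle score. They also turned for values near 0 when 1 library was left out, F11r (-0.02 to 0.01 over all 16 fits) in 7 fits (0.01 without *APOE3* replicate 27 and without *APOE4* replicate 38, 0.0048 without *APOE3* replicate 32, 0.0020 without *APOE3* replicate 33, 0.0009, 0.0011 and 0.0016 without *APOE4* replicate 35, 37 and 40) and Cldn12 (-0.0003 to 0.09) at -0.0003 without *APOE4* replicate 38. Without the filter the effect within males passed in 24 genes and within females in 366, none of them members, and the cause was not tested. Leaving out 1 library gave 0 to 1 genes within males and 0 to 879 within females, the highest without *APOE3* replicate 31 (879), *APOE4* replicate 35 (261) and *APOE3* replicate 32 (55), again with 0 members, and 9 to 10 genes between the sexes. Using the longest transcript as length raised the level per kb of Cldn12, Tjp1, F11r and Jam2 by more than 1 SD and kept the order of all 9. Cgn and most other claudins were at or near the floor, which limits what their values can show, and the part of depth in this was not tested.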
